A study of Mus musculus with 2 samples.

Results

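The middle-height Ronin peaks are the 1986 peaks of 10 to 13 tags (mapped reads) in a list of 37360 Ronin binding peaks from newborn mouse retina, 5.32% of the list. They were chosen by their place in the deposited list, rows 396 to 2381, which runs by falling tag count. Above them lie 395 peaks of 14 or more tags, called strong peaks here, and below them 34979 peaks of 9 or fewer, called low peaks. Their height is therefore what chose them and is given only as a description. The list comes from 1 chromatin immunoprecipitation and sequencing (ChIP-seq) sample of wild-type CD1 mice (an outbred stock) at postnatal day 0, which pooled more than 10 retinae. A custom-made antibody, G4275, was used against Ronin. A second sample, titled as input and labelled with normal rabbit IgG, is the control, whose own values were not used. There were no replicates, so no test between samples was possible. All intervals are exact at 95% and cover counting error only. They treat peaks as independent, which neighbouring peaks are not.

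Ronin, encoded by Thap11, binds DNA through a THAP zinc finger and works with the cofactor HCF-1. It is known for binding near the start sites of housekeeping genes, among them genes of mitochondria and of growth, and for its part in the self-renewal of embryonic stem cells. At birth the mouse retina still holds dividing progenitor cells beside newly formed neurons, and a pooled retina mixes both. In ChIP-seq, a peak is a place where more sequenced fragments pile up than the surroundings give, and its tag count is its height. A peak of middle height can be a weakly or rarely bound place or a place where background fragments gather, and height in 1 library does not tell these apart. All peak positions are in mouse build mm9, and no peak was assigned to a gene or read for its sequence.

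Most middle peaks stood at the lower end of their range. Of the 1986, 1094 peaks (55.1%) had 10 tags, 502 (25.3%) had 11, 258 (13%) had 12 and 132 (6.65%) had 13. With each tag removed the number of peaks roughly doubled: by a factor of 1.95 from 13 to 12 tags, 1.95 from 12 to 11 and 2.18 from 11 to 10. The same factor was 2.03 from 14 to 13 tags and 2.10 from 10 to 9, so the number of peaks shows no step at either edge of the class. Above it the decline was slower, with 50 peaks of 15 tags against 65 of 14.

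**Figure D1:**
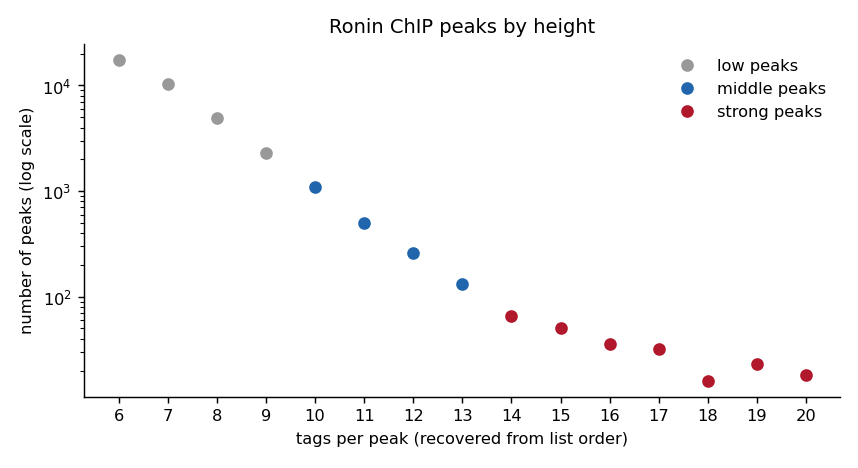
Number of peaks (log scale) against tags per peak for heights of 6 to 20 tags, 1 point for each height, with the class in colour. The middle peaks fall from 1094 at 10 tags to 132 at 13 tags about as steeply as the low peaks beside them, and the points flatten among the strong peaks.

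In this library of 3643141 tags, a peak of 10 tags held 2.74 of every 1000000 tags and a peak of 13 tags held 3.57. Per the file header, tags spread evenly would give 0.330 tags per peak, so the middle peaks stood 30.3 to 39.4 times above an even spread. Counting error is wide at such heights. A count of 10 tags has an exact Poisson interval of 4.80 to 18.4 tags, and a count of 13 has 6.92 to 22.2. The intervals of 9 tags (4.12 to 17.1) and 14 tags (7.65 to 23.5) overlap both, so a single peak cannot be placed in this class rather than the next by its count alone. Together the middle peaks held 21274 recovered tags, 7.93% of the tags in peaks, against at least 8212 tags (3.06%) in the strong peaks. The strong figure is a minimum, since the highest recovered counts are lower bounds.

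The peaks on either side of each edge show how fine the division is. The first 5 middle peaks, each of 13 tags, lay on chromosome 1. They spanned 67657271 to 67657461, 144747953 to 144748143, 151918715 to 151918905, 189114331 to 189114521 and 192555432 to 192555622. The 2 peaks just above the edge had 14 tags and lay on the X chromosome at 46641615 to 46641805 and 99700642 to 99700832. The last 5 middle peaks, each of 10 tags, also lay on the X chromosome. They spanned 162608169 to 162608359, 162693699 to 162693889, 166410421 to 166410611, 166415294 to 166415484 and 166415867 to 166416057. The 2 peaks just below had 9 tags and lay on chromosome 1 at 5419717 to 5419907 and 5896327 to 5896517. All of the middle peaks were 191 bp wide, a width fixed by the peak caller, and all were listed on the plus strand, so neither width nor strand separates them.

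A second measure, the peak number that the caller gave within each chromosome, ran with height but not strictly. The number was not used to choose the peaks, and the header does not say how it was given, so it is not independent of height. Its median was 38.5 for peaks of 13 tags, 57 for 12 tags, 90 for 11 tags and 137 for 10 tags. It was 16 for strong peaks (quartiles 9 and 29), 107 for middle peaks (61 and 198) and 1196 for low peaks (644 and 1837). To compare the measures, the peaks of each chromosome were ranked by number and divided into classes of the same sizes as the tag classes. By number alone, 1343 of the 1986 middle peaks (67.6%, 65.5% to 69.7%) stayed middle, 43 (2.17%, 1.57% to 2.91%) would be strong and 600 (30.2%, 28.2% to 32.3%) would be low. The strong peaks kept their class more often, in 350 of 395 (88.6%, 85.1% to 91.6%), as did the low peaks, in 34377 of 34979 (98.3%, 98.1% to 98.4%). Only the middle class borders another class on both sides, so a lower kept share there was partly fixed in advance.

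Within the class the division by number followed height, which was largely fixed in advance because the number itself ran with height. Among peaks of 13 tags, 21 of 132 (15.9%, 10.1% to 23.3%) would be strong by number and 5 (3.79%, 1.24% to 8.62%) would be low. Among peaks of 10 tags, 3 of 1094 (0.274%, 0.0566% to 0.799%) would be strong and 444 (40.6%, 37.7% to 43.6%) would be low. Peaks of 12 and 11 tags lay between, with 13.2% (9.30% to 17.9%) and 23.3% (19.7% to 27.3%) low by number. A small tail had very late numbers: 24 middle peaks (1.21%, 0.776% to 1.79%) were numbered past the median 6-tag peak of their chromosome, of which 18 had 10 tags and none had 13. At a count of 0 among 132 peaks of 13 tags, a share of up to 2.27% is allowed by 3 counts of the total, and up to 2.76% by the exact interval.

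**Figure D2:**
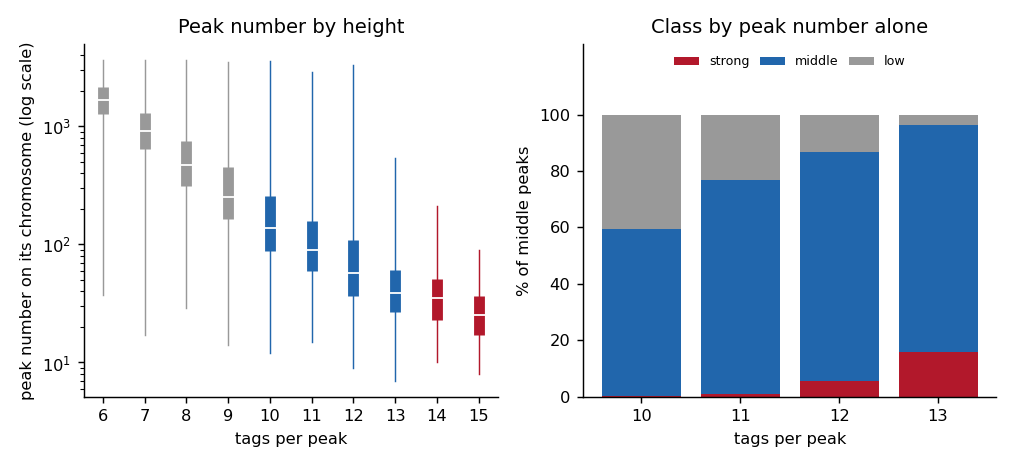
Left, peak number within its chromosome (log scale) by tags per peak, with the median as a white line, the quartiles as a box and the full range as a thin line. Right, the share of middle peaks of each tag count that would be strong, middle or low by number alone, where the low share falls from 40.6% at 10 tags to 3.79% at 13.

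Numbers absent from a chromosome's sequence were read as candidate peaks that the caller's filters had removed. Between the lowest and highest numbers held by middle peaks, 6831 of 35307 numbers (19.3%, 18.9% to 19.8%) were absent, a range that takes in most of the list because of the late-numbered tail. Over the whole range of their own numbers the share was 20.9% (18.8% to 23.2%) for strong peaks and 20.5% (20.2% to 20.9%) for low peaks, close to that of the middle peaks. Between the 25th and 75th percentile of their numbers, a range chosen after the data were seen, 220 of 2212 were absent (9.95%, 8.73% to 11.3%). In the same part of their own ranges, 99 of 307 numbers were absent among the strong peaks (32.2%, 27.0% to 37.8%) and 22.1% (21.5% to 22.6%) among the low peaks. The 3 classes thus differed in the quartile range, where their intervals did not overlap. Over the whole range they lay within 2 percentage points of each other. There the ranges of middle and low peaks share most of their numbers, so the closeness of these 2 classes was largely fixed in advance. By height the share was 17.6% (13.8% to 22.0%) around peaks of 13 tags, 12.3% (10.4% to 14.4%) around 12, 10.1% (8.58% to 11.8%) around 11 and 10.1% (8.95% to 11.3%) around 10. By chromosome it ran from 5.31% (1.97% to 11.2%) on chromosome 13 to 17.6% (10.8% to 26.4%) on chromosome 11, and these intervals overlap. Of 47133 candidates in the whole list, the file header counts 9531 as filtered by the control, 241 by local signal and 1 as too clonal. The header does not divide these counts by class. The absent numbers do not say which filter acted on each candidate.

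Every chromosome in the list carried middle peaks, and every one carried peaks of each of the 4 heights. The counts ran from 44 on chromosome 19 to 169 on chromosome 2. There were 0.773 middle peaks per Mb of span, the distance from the first to the last peak of each chromosome. Against the number expected from span, chromosome 11 stood highest with 113 peaks against 91.8 (ratio 1.23, 1.01 to 1.48), followed by chromosome 2 with 169 against 138 (ratio 1.22, 1.05 to 1.42) and chromosome 18 with 80 against 67.9 (ratio 1.18, 0.935 to 1.47). The lowest autosomes were chromosome 17 with 54 against 71.3 (ratio 0.757, 0.569 to 0.988) and chromosome 14 with 75 against 90.0 (ratio 0.833, 0.655 to 1.05). The X chromosome held 55 against 125.5 (ratio 0.438, 0.330 to 0.570).

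Placed beside the low peaks, most chromosomes held a like share of both classes. The odds of a middle peak lying on chromosome 14 were 0.748 times those of a low peak (0.583 to 0.947). That was the only one of 20 chromosomes whose interval left out 1, and no adjustment was made for looking at 20. The odds ratio was 0.766 (0.572 to 1.01) for the X chromosome, 0.807 (0.60 to 1.06) for chromosome 17, 1.15 (0.971 to 1.35) for chromosome 2 and 1.20 (0.981 to 1.47) for chromosome 11. Chromosome 7, where strong peaks gathered (52, ratio 2.27), held middle peaks close to its span, with 111 against 115.3 (ratio 0.963, 0.792 to 1.16). Its odds ratio of middle to low peaks was 1.09 (0.890 to 1.33).

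**Figure D3:**
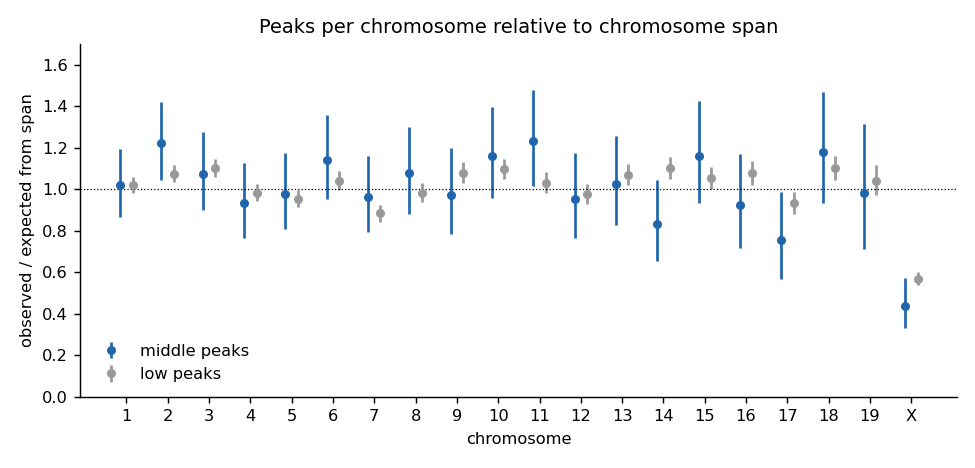
Observed peaks divided by those expected from chromosome span (linear axis) for middle and low peaks on each chromosome, with exact Poisson 95% intervals and a dotted line at 1. The middle peaks lie between 0.757 and 1.23 on the autosomes and at 0.438 on the X chromosome.

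Against gene number the order of the chromosomes changed. Expected counts in proportion to protein-coding genes gave ratios of 0.765 for chromosome 11 and 0.555 for chromosome 17, and 1.71 for chromosome 18. The low peaks had a like pattern, with 0.641, 0.684 and 1.60 in the same order. The strong peaks had 0.987, 0.724 and 0.966. The 10 chromosomes with most protein-coding genes per Mb, which make up 49.6% of the span, carried 53.0% (44.2% to 61.8%) of peaks of 13 tags and 53.1% (46.8% to 59.3%) of peaks of 12. They carried 53.8% (49.3% to 58.2%) of peaks of 11 tags and 50.2% (47.2% to 53.2%) of peaks of 10. These intervals overlap, so no order with height can be read within the class. The strong peaks stood above all 4 in their share, at 65.3% (60.4% to 70.0%), although that interval overlaps the one at 13 tags. The low peaks stood at 49.9% (49.4% to 50.4%). The X chromosome held 6 of the 132 peaks of 13 tags (4.55%, 1.69% to 9.63%), 4 of 258 at 12 tags (1.55%, 0.424% to 3.92%), 8 of 502 at 11 (1.59%, 0.690% to 3.12%) and 37 of 1094 at 10 (3.38%, 2.39% to 4.63%). It makes up 6.32% of the span and held 3.59% (3.39% to 3.79%) of the low peaks.

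Along the chromosomes the middle peaks were spread nearly evenly. With each span cut into 10 equal stretches, numbered from the lowest coordinates, a stretch held between 9.06% (the fourth, 7.84% to 10.4%) and 11.2% (the ninth, 9.87% to 12.7%) of them. Low peaks ran from 9.29% to 10.4%. Strong peaks were less even, from 5.82% (3.73% to 8.61%) in the third stretch to 15.2% (11.8% to 19.1%) in the ninth. Within 1 Mb of the first peak of a chromosome lay 25 middle peaks (1.26%, 0.816% to 1.85%), against 0.706% (0.621% to 0.80%) of low peaks and 2.28% (1.05% to 4.28%) of strong peaks. The centromere of mouse chromosomes lies at this end. Within 1 Mb of the last peak lay 18 middle peaks (0.906%, 0.538% to 1.43%), against 0.746% (0.659% to 0.842%) of low peaks.

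**Figure D4:**
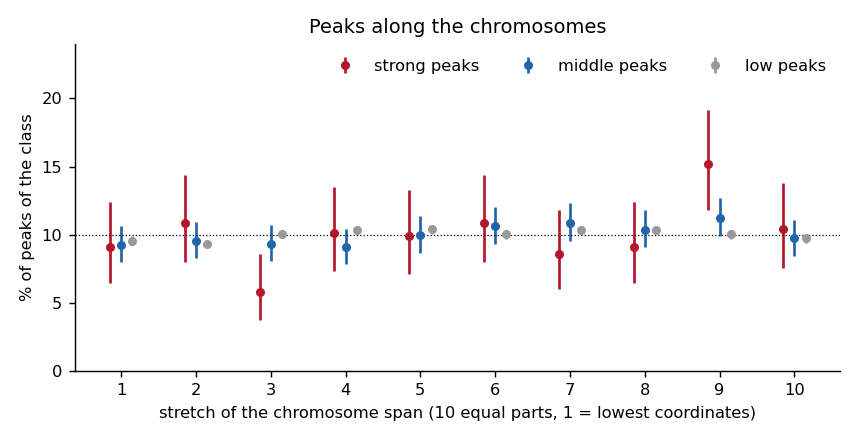
Share of each class (linear axis) in each of 10 equal stretches of its chromosome's span, summed over 20 chromosomes, with exact binomial 95% intervals and a dotted line at an even 10%. The middle peaks stay between 9.06% and 11.2%, while the strong peaks range from 5.82% to 15.2%.

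Middle peaks lay near a strong peak more often than low peaks did. Of the 1986, 49 (2.47%, 1.83% to 3.25%) had a strong peak within 50 kb, against 501 of the low peaks (1.43%, 1.31% to 1.56%). The odds ratio was 1.74 (1.27 to 2.35). Within 5 kb the counts were 7 (0.352%, 0.142% to 0.725%) and 34 (0.0972%, 0.0673% to 0.136%), an odds ratio of 3.64 (1.36 to 8.34). Within 1 Mb the shares were 26.1% and 21.7% (odds ratio 1.27, 1.15 to 1.41). Both classes fell short of the strong peaks, of which 37 (9.37%, 6.68% to 12.7%) had another strong peak within 50 kb. The median distance to the nearest strong peak was 2758 kb for middle peaks and 3106 kb for low peaks. In the caller, a filter on signal within 10000 bp acts at the shortest of these distances, and its part in the result was not tested.

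Within the class, nearness to a strong peak was lowest at 10 tags. A strong peak lay within 50 kb of 3 of the 132 peaks of 13 tags (2.27%, 0.471% to 6.5%), 8 of 258 at 12 tags (3.10%, 1.35% to 6.02%), 18 of 502 at 11 tags (3.59%, 2.14% to 5.61%) and 20 of 1094 at 10 tags (1.83%, 1.12% to 2.81%). All 4 intervals overlap. The 892 peaks of 11 to 13 tags had a strong peak within 50 kb in 29 cases (3.25%), an odds ratio of 2.31 (1.52 to 3.39) against low peaks. The intervals at 10, 12 and 13 tags each hold the 1.43% of low peaks, and the interval at 11 tags leaves it out. Taken singly, an excess over low peaks was thus not detectable at 10, 12 or 13 tags. The difference between 10 tags and 11 to 13 tags was not tested. Chromosome 7 held 9 of the 49, or 8.11% of its own middle peaks, and chromosomes 6, 17 and X held none. Without chromosome 7 the share was 2.13% against 1.32% of low peaks (odds ratio 1.63, 1.14 to 2.26). With only the highest strong peak kept from each run of strong peaks spaced under 1 Mb, it was 1.81% against 1.05% (odds ratio 1.73, 1.19 to 2.45).

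The 5 middle peaks closest to a strong peak lay on 5 chromosomes. The nearest, of 11 tags, was on chromosome 7 at 26024220 to 26024410, 733 bp from a strong peak of at least 24 tags at 26023487 to 26023677. The next, of 10 tags, was on chromosome 2 at 30352331 to 30352521, 890 bp from a strong peak of at least 23 tags. On chromosome 9 a peak of 11 tags at 57401846 to 57402036 lay 1296 bp from one of at least 23 tags. On chromosome 5 a peak of 11 tags at 150442170 to 150442360 lay 2885 bp from one of at least 34 tags. On chromosome 11 a peak of 10 tags at 50869527 to 50869717 lay 3080 bp from one of at least 23 tags. Tag counts this high are lower bounds, since list order leaves no trace of empty counts. In all 5 the strong neighbour held more than 2 times as many tags, and whether such neighbours are separate sites was not tested.

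Middle peaks had another middle peak within 5 kb more often than low peaks did, and about as often as strong peaks did. Within 5 kb, 37 of them (1.86%, 1.32% to 2.56%) had another middle peak, against 301 low peaks (0.861%, 0.766% to 0.963%) with a middle peak that close, an odds ratio of 2.19 (1.51 to 3.09). Strong peaks had a middle peak within 5 kb in 8 of 395 cases (2.03%, 0.878% to 3.95%), and the odds ratio of middle to strong peaks was 0.918 (0.417 to 2.30). Each close pair counts 2 times among the middle peaks, so these intervals are too narrow: the 37 formed 17 pairs and 1 trio. At 50 kb the difference was not detectable, with 174 middle peaks (8.76%, 7.55% to 10.1%) against 8.19% (7.91% to 8.49%) of low peaks (odds ratio 1.08, 0.911 to 1.26). Strong peaks had a middle peak within 50 kb in 48 of 395 cases (12.2%, 9.10% to 15.8%), more often than middle peaks did. The odds ratio of middle to strong peaks at 50 kb was 0.694 (0.491 to 0.997). The median distance from a middle peak to the next was 399 kb.

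**Figure D5:**
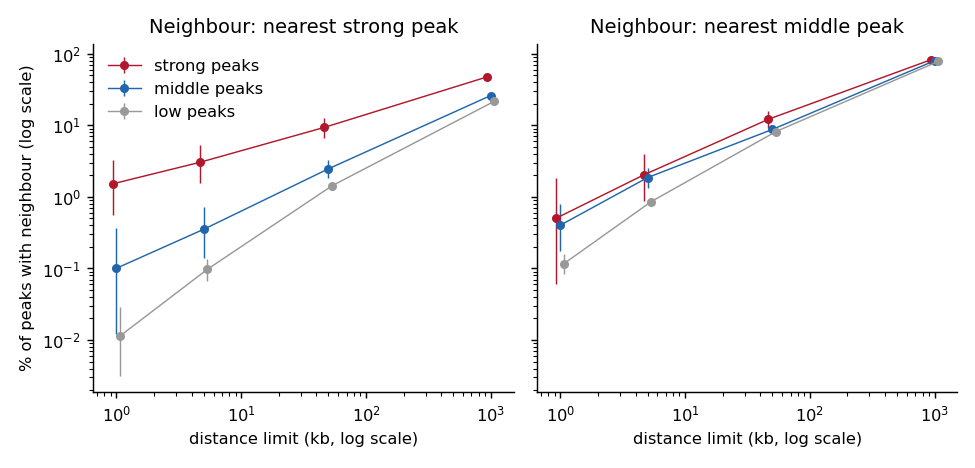
Share of strong, middle and low peaks (log scale) with a strong peak (left) or a middle peak (right) within 1, 5, 50 or 1000 kb (log scale), with exact binomial 95% intervals; points of 1 limit are set slightly apart. Middle peaks lie between the strong and low peaks on the left, from 2.47% at 50 kb, and come close to the low peaks on the right at 50 kb.

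The 5 closest pairs of middle peaks were 513 to 1056 bp apart. The closest lay on chromosome 4, with 11 tags at 135841276 to 135841466 and 13 tags at 135841789 to 135841979. The second, 573 bp apart, lay on the X chromosome with 10 tags each, at 166415294 to 166415484 and 166415867 to 166416057. The third, 683 bp apart, lay on chromosome 6 with 10 tags each, at 124136091 to 124136281 and 124136774 to 124136964. The fourth, 711 bp apart, lay on chromosome 7 with 12 tags at 4453701 to 4453891 and 13 at 4454412 to 4454602. The fifth, 1056 bp apart, lay on chromosome 9 with 12 tags at 49505691 to 49505881 and 10 at 49506747 to 49506937. The smallest distance the caller allowed was 382 bp, per the file header. Whether such pairs are separate sites was not tested.

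At 50 kb the 174 middle peaks with a middle neighbour formed 83 groups, of which 75 were pairs and 8 were trios, and none was larger. The tightest trio spanned 5.45 kb at the distal end of the X chromosome, 166410421 to 166416057, with 10 tags in each peak. The distal end of the mouse X carries the pseudoautosomal region, which pairs with the Y chromosome, and whether these peaks lie in it was not tested. In the last 1 Mb of the X span lay 4 of its 55 middle peaks, 6 of its 1254 low peaks and none of its 7 strong peaks. The next trios were on chromosome 1 at 173460329 to 173476672, of 10 to 12 tags, and on chromosome 5 at 73802067 to 73819890, of 10 to 13 tags. Of the 8 trios, 1 had strong peaks within 50 kb, on chromosome 7 at 25997752 to 26053100, where there were 2.

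Counted against peaks of any height, middle peaks had a neighbour within 5 kb in 318 cases (16.0%, 14.4% to 17.7%). The share was 13.6% (13.3% to 14%) for low peaks, an odds ratio of 1.21 (1.06 to 1.37), and 12.4% (9.32% to 16.1%) for strong peaks. Most of these neighbours were low peaks, which make up 93.6% of the list. A low peak lay within 5 kb of 278 middle peaks (14%, 12.5% to 15.6%), against 32 strong peaks (8.10%, 5.61% to 11.2%), an odds ratio of 1.85 (1.25 to 2.80). The caller's filter on signal within 10000 bp acts at this distance too, and its part in this difference was not tested. Of the low peaks, 12.8% (12.4% to 13.2%) had another low peak that close. The odds ratio of middle to low peaks was 1.11 (0.970 to 1.26), so no difference was detectable there. By height the share with any neighbour was 21.2% (14.6% to 29.2%) at 13 tags, 16.7% (12.3% to 21.8%) at 12, 15.5% (12.5% to 19%) at 11 and 15.4% (13.4% to 17.7%) at 10, with intervals that overlap. Within 500 kb on either side, a middle peak had on average 0.225 strong, 0.90 other middle and 14.3 low peaks. Around a low peak the averages were 0.152, 0.814 and 14.4, and around a strong peak they were 0.582, 1.13 and 13.5.

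The 3 windows of 1 Mb with most middle peaks held 7 each. On chromosome 19 they spanned 5771879 to 6534097, with 1 strong and 7 low peaks in the same 1 Mb. In order along the chromosome the middle peaks there had 13, 10, 11, 10, 12, 12 and 11 tags. On chromosome 7 they spanned 52146460 to 53086411, with 4 strong and 14 low peaks, and had 11, 12, 13, 11, 13, 11 and 11 tags. On chromosome 3 they spanned 87150830 to 88100640, with 1 strong and 16 low peaks, and had 11, 11, 12, 12, 12, 10 and 10 tags. The list as a whole held 13.6 low peaks per Mb, so low peaks were no denser than usual in the chromosome 19 window. The 3 Mb around each window held 2, 8 and 7 strong peaks, in that order, against 0.462 per 3 Mb of span in the list. The windows were picked for their middle peaks, so their counts of 7 are a description.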

How the data were processed

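The values come from 1 peak list of the Ronin ChIP sample. The submitters' processing notes name HOMER 4.7 and build mm9 but no aligner. Per the file headers, the library held 3643141 tags, peaks were 191 bp wide, the threshold was 6 tags, and candidates were filtered against the control, the surrounding 10000 bp and clonal tags. The deposited score of each peak is 1 throughout and was not used. The other deposited values are peak positions, given here 1-based.

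Tag counts were inferred from list order: each step back in chromosome and position was taken to begin a lower count, with the members at 10 to 13 tags. They were not read from a column, and counts well above 20 are lower bounds. Peaks of 6 tags ended at row 37286 of 37360. The rows after it were thus given counts below the caller's threshold of 6, and the reason was not tested. Distances run from start to start. Shares have exact Clopper-Pearson 95% intervals, counts exact Poisson intervals and odds ratios exact conditional intervals. The floor for a count of 0 is 3 counts. No p-values were computed, since 1 library allows no test between samples. Genes per chromosome (21627 protein-coding) were counted in a RefSeq table of assembly GRCm38, another build, from which no coordinates were used; expected numbers by gene use them. Planned shares at genes and motifs were not run, and no gene is named. The distance code was tested on simulated data. The members and comparisons were chosen with earlier results of these data known. Regions named are the first and last 5 members, the 2 rows outside each edge, the 5 closest pairs, the 5 members closest to a strong peak and the 3 fullest windows of 1 Mb; other named regions were chosen after their values were seen. Scripts ran in Python 3.11.15 with pandas 2.3.3, numpy 2.4.6 and scipy 1.17.1, and figures were drawn in matplotlib 3.10.9.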

Additional observations from a re-analysis of the deposited data

How the results depend on the processing

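Of 52 alternative values, 29 lay within the interval of the value reported and 23 outside it; a longer distance raises a share by construction, and more or fewer members raise or lower the share with another member. Members with a strong peak within 50 kb made up 2.47%. This became 3.25% for 11 to 13 tags, 1.41% with strong peaks of 20 or more tags and 1.81% with strong peaks within 1 Mb counted once, and 0.101%, 0.352% and 26.1% within 1000, 5000 and 1000000 bp. Members with another member within 50 kb made up 8.76%, which became 4.60% for 11 to 13 tags, 16.8% for 9 to 13 tags, and 0.403%, 1.86% and 80.1% within 1000, 5000 and 1000000 bp. Members with any peak within 5 kb made up 16.0%, and 2.57%, 80.9% and 100% within 1000, 50000 and 1000000 bp. Missing candidates went from 19.3% to 17.4% for 11 to 13 tags, 20.4% for 9 to 13 tags and 9.95% between the quartiles of the numbers. The X chromosome ratio of 0.438 became 0.319 for 11 to 13 tags and 0.620 against protein-coding genes. For moves not set by the construction, the cause was not tested. The odds ratio of members against low peaks near a strong peak lay between 1.54 and 2.47 in 6 alternatives, all at 50 kb. At other distances it was 8.81 (0.797 to 61.5) within 1000 bp, 3.64 (1.36 to 8.34) within 5000 bp and 1.27 (1.15 to 1.41) within 1000000 bp. The alternatives without chromosome 7, with strong peaks counted once, between quartiles and without chromosome ends were chosen after seeing the data. No paired analysis was possible because there was 1 ChIP sample.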

Other observations

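Some middle peaks stood apart from the rest in number or distance, and all in this paragraph were chosen after their values were seen. The latest-numbered middle peak was number 3610 on chromosome 2, with 10 tags at 154386601 to 154386791. A peak of 12 tags on chromosome 2 at 148924649 to 148924839 carried number 3285, against a median of 57 at that height. The earliest was number 7 on the X chromosome, with 13 tags at 92853664 to 92853854. The most isolated was a peak of 10 tags on chromosome 2 at 100170186 to 100170376, 459 kb from the nearest listed peak of any height. In all, 380 middle peaks (19.1%, 17.4% to 20.9%) had no listed peak within 50 kb, against 21.8% (21.4% to 22.2%) of low peaks.

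Further windows of 1 Mb held 6 middle peaks each. A pair of them lay on chromosome 11, at 16851213 to 17662526 with no strong and 11 low peaks, and at 30886334 to 31704630 with no strong and 18 low peaks. The other lay on chromosome 7 at 98633876 to 99615747, with no strong and 14 low peaks. The 3 Mb around these windows held 0, 1 and 1 strong peaks, in the order given. By peak number, a strong peak lay within 50 kb of 2 of the 43 middle peaks that would be strong (4.65%, 0.568% to 15.8%), 36 of the 1343 middle peaks that stayed middle by number (2.68%, 1.88% to 3.69%) and 11 of the 600 that would be low (1.83%, 0.919% to 3.26%). The 3 shares fall in that order, and their intervals overlap.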
